A study of Mus musculus with 9 samples.

Results

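Matrix glycoproteins, elastic fibre genes, proteoglycans and laminins of the mouse heart were followed by name: 41 genes were listed, and 39 of them had a row among the 13192 named genes of the count table. The list held 14 glycoproteins, 12 elastic fibre genes, 6 proteoglycans and 9 laminin and basement membrane genes. Spp1 and Cthrc1, both listed with the glycoproteins, had no row in the count table, so their levels were not analysed here. RNA came from the apex of the heart of male wild-type C57BL/6J mice that had received an adeno-associated virus (AAV) in the right gastrocnemius, a muscle of the hind leg, at 10 weeks of age, at 1e+11 viral particles, and whose hearts were collected 12 weeks later. The group named AAV-Osm (5 libraries) received the vector for Osm, which encodes the cytokine oncostatin M, and the group named AAV-Null (4 libraries) received the AAV-Null vector. All animals shared the strain, sex, injection site and age, the vector was given to the leg and not to the heart, and its promoter is not given in the sources used here. Osm itself was not analysed here, so the transgene gave no check of the labels.

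The extracellular matrix of the heart is made largely by fibroblasts, with contributions from endothelial cells, smooth muscle cells and cardiomyocytes. Glycoproteins such as fibronectin and the thrombospondins link cells to the matrix, microfibrils and elastin give vessels and valves their recoil, small leucine-rich proteoglycans bind collagen fibrils, and laminins with nidogen and perlecan form the sheet around each muscle cell. Oncostatin M belongs to the interleukin-6 cytokines and acts through the shared receptor chain gp130 and STAT transcription factors.

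Library totals ranged from 11841106 to 30625134 counts in named genes. Every gene of the table exceeded 0.5 CPM (counts scaled to a fixed library total) in at least 4 libraries, so a gene high in AAV-Null alone could be kept. Heart muscle markers were present at 87400 to 118900 CPM in sum over 8 genes in every library. The 9 libraries were compared with edgeR's quasi-likelihood test, with Benjamini-Hochberg adjustment over all 13192 genes and a threshold of 0.05 on the adjusted p, and a log2 fold change above 0 means a higher level in AAV-Osm. Levels below are CPM after scaling by edgeR's TMM factors unless a sentence names another scale, and they are given in the order of the library numbers. The labels do not state outright that each library came from a separate mouse, and the p-values then measure spread that may be technical. By a chi-square of the counts per degree of freedom, which is near 1 for sampling noise alone, AAV-Null 1 and 2 (6.52) and AAV-Osm 2 and 3 (9.68) were the most alike pairs. The other pairs of a group gave 30.1 to 98.1. Between the groups, AAV-Osm 4 gave 17.3 with AAV-Null 1 and 18.6 with AAV-Null 2. Every pair differed by more than sampling noise, but repeats of the same RNA can do so too. The chi-square therefore cannot show whether the libraries came from separate mice, and each library was counted as a sample.

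None of the 39 members passed the threshold in either direction, and their edgeR adjusted p ranged from 0.549 to 0.999. Over all genes tested, 16 passed, which is 0.121%, with 0.0834% higher and 0.0379% lower. Without adjustment, 1 member was higher and 5 were lower at p under 0.05, which is 15.4% of the members against 5.97% of all genes (2.89% higher and 3.09% lower). These 6 were Fn1, higher in AAV-Osm, and Thbs1, Eln, Mfap5, Fmod and Vcan, lower in AAV-Osm. The values of the AAV-Osm and AAV-Null libraries did not overlap in 3 members (7.69%), Fn1, Eln and Vcan, against 2.28% of all genes (1.05% higher and 1.23% lower). The median log2 fold change of the members was -0.04, beside 0.01 for all genes, and 23 of 39 (59%) were below 0, beside 48.1% of all genes. The members and the other lists below were chosen with earlier results of these data known, so no such share was tested. The 95% interval of the log2 fold change, from the quasi-likelihood fit, lay within 2-fold in both directions for 34 members (87.2%, beside 88% of all genes) and within 1.5-fold for 18 (46.2%, beside 51.6%). The plot of fold changes by gene shows the intervals of all 39 members.

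**Figure D1:**
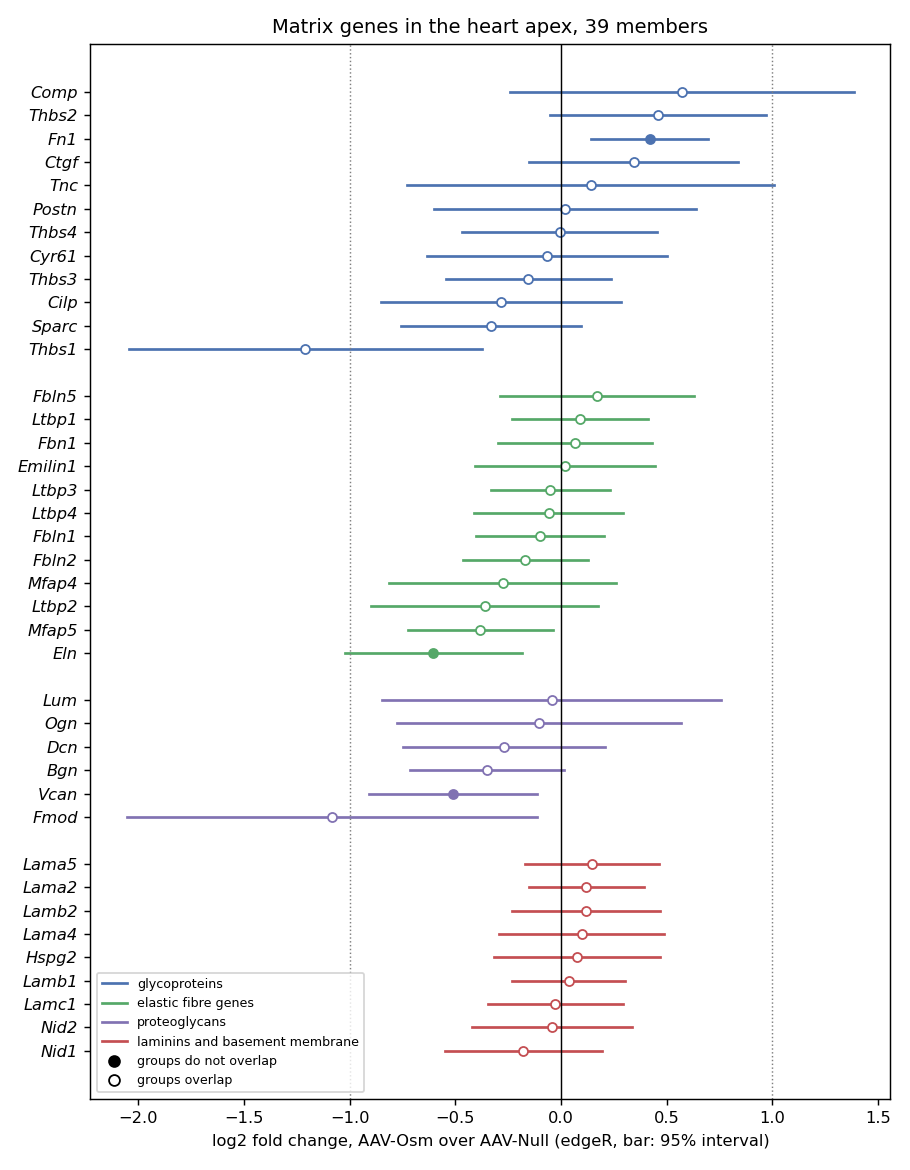
EdgeR log2 fold change of each member, AAV-Osm over AAV-Null, with its 95% interval (horizontal axis), grouped by member list (vertical axis). Filled points mark Fn1, Eln and Vcan, whose libraries do not overlap between the groups, and the 9 laminin and basement membrane genes have edgeR intervals within 1.5-fold of no difference.

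The groups of genes had different ranges. The 6 genes listed as proteoglycans all had a log2 fold change below 0, with a median of -0.31 and a range from -1.08 to -0.04. Of 18 other proteoglycans, 11 (61.1%) were below 0, beside 48.1% of all genes. Hspg2, a proteoglycan listed with the laminins, was at 0.08. Leaving out AAV-Null 1, AAV-Null 2, AAV-Osm 2 or AAV-Osm 3 left 4 of the 6 listed proteoglycans below 0. All 9 fibroblast markers outside the matrix were also below 0, with a median of -0.37, and so were all 7 mesothelial and epicardial markers, with a median of -1.27. The groups did not overlap in 2 of the former, Meox1 at -0.54 (SE 0.14) and Gas1 at -0.38 (SE 0.14), and in 1 of the latter, Krt19 at -1.73 (SE 0.47). Of all genes, 1.23% were lower without overlap. In edgeR, 2 of the 9 fibroblast markers and 5 of the 7 mesothelial and epicardial markers had an unadjusted p under 0.05, beside 5.97% of all genes. None of these markers passed the threshold in edgeR, and their part in the proteoglycan values was not tested. The 12 elastic fibre genes had a median of -0.08, with 8 below 0 and a range from -0.60 to 0.17, and this median was 0.05 without AAV-Null 4 and AAV-Osm 5. The 12 glycoproteins had a median of 0.01, with 6 above and 6 below 0 and a range from -1.21 to 0.57. The 9 laminin and basement membrane genes had a median of 0.08, with 6 above 0 and a range from -0.18 to 0.15. This median was -0.03 after a trend of the levels in each library with exon length was taken out. Differences between these groups of genes were not tested. In heart tissue as a whole, fewer cells of a type and less RNA per cell cannot be told apart, and this holds for every level below.

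Fn1 (fibronectin, the glycoprotein that joins integrins to collagen and fibrin) was the glycoprotein with the smallest p. It lies on chromosome 1, from 71585473 to 71653234 on the minus strand of mm10. Its levels were 16.8, 14.5, 16.0 and 15.01 CPM in AAV-Null and 24.3, 19.6, 20.1, 19.8 and 20.3 CPM in AAV-Osm. All 5 AAV-Osm libraries lay above the 4 AAV-Null libraries, and AAV-Osm 1 stood above the other 4. The means were 15.6 ± 1.01 (SD, n = 4) and 20.8 ± 1.94 (SD, n = 5), so AAV-Osm was 1.34-fold higher. On the log2 scale the difference was 0.42 (SE 0.13, 95% interval 0.14 to 0.69). The edgeR adjusted p was 0.549, so the difference did not pass over all genes although the groups did not overlap.

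Thbs1 (thrombospondin 1, an activator of latent TGF-beta and an inhibitor of vessel growth) lies on chromosome 2, from 118111922 to 118127133 on the plus strand. The levels were 6.57, 16.5, 4.21 and 4.79 CPM in AAV-Null and 3.11, 2.07, 3.01, 3.74 and 5.37 CPM in AAV-Osm. AAV-Null 2 was far above the other libraries, and AAV-Osm 5 lay within the range of the AAV-Null group. Its log2 fold change, -1.21 (SE 0.39, 95% interval -2.05 to -0.37, adjusted p = 0.579 in edgeR), was the lowest of all members. Without AAV-Null 2 the log2 fold change was -0.58 (SE 0.28, adjusted p = 0.995 in edgeR). Thbs2 (thrombospondin 2, a matricellular protein of fibroblasts) had 8.82, 9.22, 7.70 and 8.07 CPM in AAV-Null and 14.3, 7.41, 7.499, 11.9 and 16.8 CPM in AAV-Osm. AAV-Osm 1, 4 and 5 were above every AAV-Null library, while AAV-Osm 2 and 3 were below all of them. The log2 fold change of Thbs2 was 0.46 (SE 0.24, adjusted p = 0.883 in edgeR). Thbs3 and Thbs4 had log2 fold changes of -0.15 and -0.01, so the thrombospondins had values of either sign.

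Comp (thrombospondin 5, known from cartilage and tendon) had 1.65, 1.69, 3.49 and 6.16 CPM in AAV-Null and 6.18, 5.83, 3.59, 2.70 and 5.56 CPM in AAV-Osm. The groups overlapped, since AAV-Null 4 was nearly as high as AAV-Osm 1 and AAV-Osm 4 was below AAV-Null 3. Its log2 fold change, 0.57 (SE 0.38, 95% interval -0.24 to 1.39, adjusted p = 0.929 in edgeR), was the highest among the members. Comp was the only member past the threshold in limma-voom with quality weights, which gave a log2 fold change of 1.30 (SE 0.28, adjusted p = 0.0399). That fit weighted AAV-Null 4 at 0.344 and AAV-Null 2 at 3.35. The same fit called 1.29% of all genes. In edgeR without AAV-Null 4, the log2 fold change of Comp was 1.06 (adjusted p = 0.630), and over all 22 alternatives its adjusted p ran from 0.0399 to 0.9999.

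Sparc (osteonectin, a collagen-binding glycoprotein) was the most abundant glycoprotein per length, at 594 ± 102 TPM (counts per exon length, scaled to a fixed total; SD, n = 4) in AAV-Null and 484 ± 60.3 TPM (SD, n = 5) in AAV-Osm. It made up 76.7 ± 8.61% (SD) of the summed glycoprotein TPM in AAV-Null and 72.7 ± 4.88% (SD) in AAV-Osm. Its levels were 816, 756, 812 and 1340 CPM in AAV-Null and 703, 766, 828, 871 and 528 CPM in AAV-Osm. AAV-Null 4 was above and AAV-Osm 5 below all other libraries, and the remaining 7 libraries overlapped. The log2 fold change was -0.33 (SE 0.20, adjusted p = 0.914 in edgeR) with all libraries and -0.00 without these 2.

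Cyr61 (now called Ccn1) and Ctgf (Ccn2) encode secreted proteins of the CCN family that are known targets of YAP and TEAD. Cyr61 had 139, 195, 142 and 61.6 CPM in AAV-Null and 108, 103, 174, 128 and 129 CPM in AAV-Osm. The lowest and the highest library were both AAV-Null, and the log2 fold change was -0.07 (SE 0.26, adjusted p = 0.988 in edgeR). Ctgf had 34.1, 35.4, 65.0 and 45.4 CPM in AAV-Null and 36.8, 66.3, 74.4, 48.5 and 59.9 CPM in AAV-Osm, with a log2 fold change of 0.34 (SE 0.23) and overlapping groups. In the GENCODE M21 annotation, 22.5% of the exon length of Ctgf lies under exons of a gene on the other strand, and the sources used here do not say whether the counting used strand. The tissue-repair gene Postn (periostin) had 16.5, 19.6, 14.7 and 7.97 CPM in AAV-Null and 22.1, 11.0, 9.81, 11.5 and 19.7 CPM in AAV-Osm, with overlapping groups and a log2 fold change of 0.02 (SE 0.29). Tnc (tenascin C, a glycoprotein of injured tissue) was near the lower end of the table, at 0.106 TPM in AAV-Null and 0.117 TPM in AAV-Osm on average, and its lowest library held 2 counts. Cilp, a gene of cartilage and of cardiac fibroblasts, had a log2 fold change of -0.28 (SE 0.26).

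**Figure D2:**
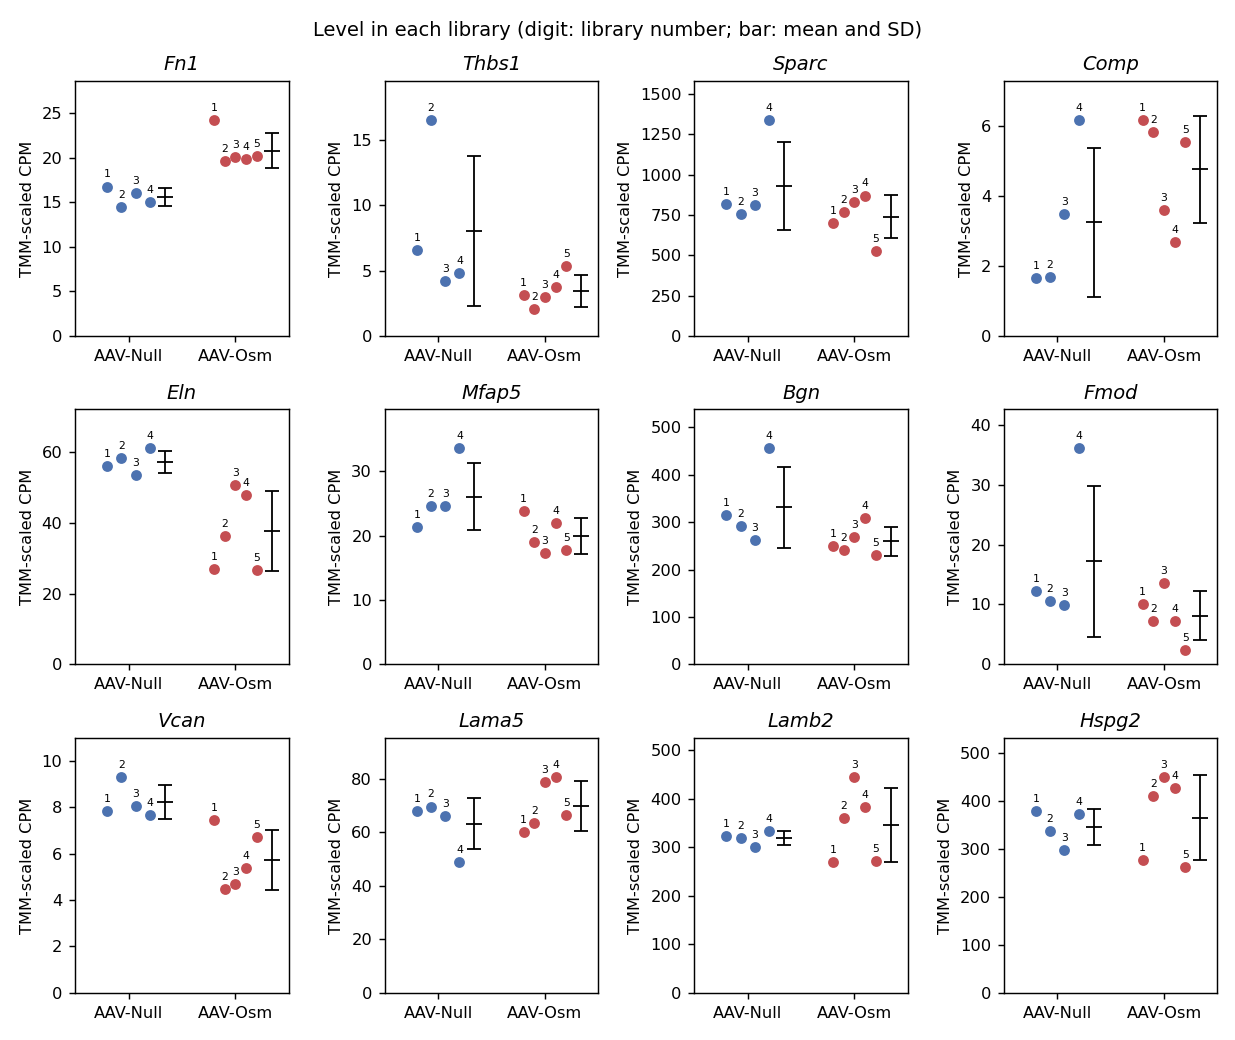
TMM-scaled CPM (vertical axis, from 0) of 12 members in each library, with the mean and SD of each group beside the points and the library number above each point. The 5 AAV-Osm libraries of Fn1 lie above and those of Eln and Vcan below the AAV-Null libraries, while AAV-Null 4 stands above the others in Sparc, Bgn and Fmod.

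Among the elastic fibre genes, Eln (elastin, the rubber-like core of the fibre) had the lowest log2 fold change. It lies on chromosome 5, from 134702596 to 134747254 on the minus strand. Its levels were 56.2, 58.4, 53.7 and 61.1 CPM in AAV-Null and 26.9, 36.5, 50.8, 48.0 and 26.8 CPM in AAV-Osm. All 5 AAV-Osm libraries lay below the AAV-Null libraries, with AAV-Osm 3 and 4 close to them and AAV-Osm 1 and 5 far below. The means were 57.3 ± 3.18 (SD, n = 4) and 37.8 ± 11.3 (SD, n = 5), so AAV-Osm was 1.52-fold lower. On the log2 scale the difference was -0.60 (SE 0.19, 95% interval -1.02 to -0.19). The edgeR adjusted p was 0.579. The smooth muscle and pericyte markers, 8 of 8 measured, summed to between 342 and 480 CPM in AAV-Null and between 384 and 460 CPM in AAV-Osm. The contractile genes Acta2, Tagln, Cnn1 and Myl9 summed to between 140 and 199 CPM in AAV-Null and between 122 and 173 CPM in AAV-Osm. Of these 4 genes, 3 had a log2 fold change below 0, with a median of -0.24, and none passed the threshold in edgeR. The part of either list in the Eln result was not tested.

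In each of the other 11 elastic fibre genes, most of which encode microfibril proteins, the groups overlapped. Mfap5 (a glycoprotein of microfibrils) had 21.4, 24.7, 24.7 and 33.6 CPM in AAV-Null and 23.8, 19.0, 17.4, 22.0 and 17.8 CPM in AAV-Osm. AAV-Osm 1 and 4 lay within the AAV-Null range and the other 3 below it, and the log2 fold change was -0.38 (SE 0.16, 95% interval -0.73 to -0.04, adjusted p = 0.794 in edgeR). Without AAV-Null 4 and AAV-Osm 5 it was -0.20. Fbn1 (fibrillin 1, the backbone of microfibrils) and Emilin1, which sits between elastin and microfibrils, had log2 fold changes of 0.06 (SE 0.17) and 0.02 (SE 0.20). Mfap4, another microfibril protein, had a log2 fold change of -0.28 (SE 0.25).

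Fbln1 (fibulin 1), the most abundant fibulin per length, had 65.0, 58.6, 56.3 and 83.8 CPM in AAV-Null and 65.2, 55.7, 62.4, 64.9 and 59.7 CPM in AAV-Osm. AAV-Null 4 was above every other library, the other 8 libraries overlapped, and the log2 fold change was -0.10 (SE 0.14, adjusted p = 0.973 in edgeR). Fbln2 and Fbln5, which bind elastin, had log2 fold changes of -0.17 (SE 0.14) and 0.17 (SE 0.21). Fbln1 made up 52.0% of the fibulin TPM in AAV-Null and 52.8% in AAV-Osm on average.

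The latent TGF-beta binding proteins are matrix proteins, and some of them, though not all, hold inactive TGF-beta there. Ltbp4 was the most abundant elastic fibre gene per length, at 91.0 ± 12.8 TPM (SD, n = 4) in AAV-Null and 89.5 ± 8.53 TPM (SD, n = 5) in AAV-Osm. Its levels were 292, 253, 257 and 397 CPM in AAV-Null and 277, 282, 344, 300 and 238 CPM in AAV-Osm, and the groups overlapped. The log2 fold change was -0.06 (SE 0.16, adjusted p = 0.987 in edgeR). Ltbp2, the rarest of them, 11.0% of whose exon length lies under exons of the other strand, had 1.91, 2.43, 2.66 and 2.25 CPM in AAV-Null and 1.87, 1.69, 2.76, 1.48 and 1.24 CPM in AAV-Osm. AAV-Osm 3 was the highest of all libraries for Ltbp2 and the other 4 AAV-Osm libraries were the lowest, with a log2 fold change of -0.36 (SE 0.25, adjusted p = 0.934 in edgeR). Ltbp1 and Ltbp3 had log2 fold changes of 0.09 (SE 0.15) and -0.05 (SE 0.13). Ltbp4 made up 85.8 ± 2.18% (SD) of the TPM of these 4 genes in AAV-Null and 85.6 ± 1.52% (SD) in AAV-Osm.

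Vcan (versican, a large hyaluronan-binding proteoglycan) was the proteoglycan with the smallest p. It lies on chromosome 13, from 89655310 to 89742512 on the minus strand. Its levels were 7.82, 9.31, 8.06 and 7.68 CPM in AAV-Null and 7.45, 4.47, 4.68, 5.40 and 6.70 CPM in AAV-Osm. The AAV-Osm libraries all lay below AAV-Null, but AAV-Osm 1 was only just below AAV-Null 4. The means were 8.22 ± 0.744 (SD, n = 4) and 5.74 ± 1.30 (SD, n = 5), so AAV-Osm was 1.42-fold lower. The difference was -0.51 on the log2 scale (SE 0.18, 95% interval -0.91 to -0.11), with an edgeR adjusted p of 0.663. When the libraries were scaled by total counts or upper-quartile factors, the groups of Vcan overlapped.

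The promoter window of Vcan is shown because it is the only member with separated groups that had an entry in the RefSeq promoter table. The window holds 250 bases before and 50 after the start of the gene, at chr13:89742463-89742762 on the minus strand of GRCm38.p6. Capitals mark matches, on either strand, to the motifs searched. The STAT motif was TTCNNNGAA. For AP-1 the letters TGANTCA were used. TEAD factors were searched as GGAATG. The letters GGGCGG stood for SP1. The TATA motif was read as TATAAA, wherever it lay in the window.
Vcan: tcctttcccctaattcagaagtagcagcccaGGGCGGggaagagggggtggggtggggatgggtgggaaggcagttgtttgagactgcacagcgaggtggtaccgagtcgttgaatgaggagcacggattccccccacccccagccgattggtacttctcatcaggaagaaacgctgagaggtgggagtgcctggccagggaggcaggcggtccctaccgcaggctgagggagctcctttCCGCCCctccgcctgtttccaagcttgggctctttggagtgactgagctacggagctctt
Its capitals are 2 matches to the SP1 motif, which 35.7% of the 32851 windows in the table hold.

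Fmod (fibromodulin, which binds collagen fibrils in tendon and elsewhere) had 12.3, 10.6, 9.87 and 36.0 CPM in AAV-Null and 10.2, 7.19, 13.5, 7.23 and 2.42 CPM in AAV-Osm. AAV-Null 4 was far above and AAV-Osm 5 far below the other 7 libraries, which overlapped. Its log2 fold change, -1.08 (SE 0.45, 95% interval -2.05 to -0.12, adjusted p = 0.779 in edgeR), was the lowest of the proteoglycans. It was -0.43 without AAV-Null 4 (edgeR adjusted p = 0.975) and -0.19 without both. The mesothelial and epicardial markers, 7 of 7 measured, summed to 46.6, 44.4, 62.6 and 137 CPM in AAV-Null and 38.8, 27.1, 46.1, 25.1 and 10.5 CPM in AAV-Osm. They too were highest in AAV-Null 4 and lowest in AAV-Osm 5, and their part in the Fmod result was not tested.

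Dcn (decorin) and Bgn (biglycan) are the abundant small leucine-rich proteoglycans of heart matrix. Dcn was the most abundant of all members per length, at 933 ± 174 TPM (SD, n = 4) in AAV-Null and 798 ± 234 TPM (SD, n = 5) in AAV-Osm, and it made up 75.1 ± 1.04% (SD) and 75.3 ± 3.56% (SD) of the proteoglycan TPM. Its levels were 1096, 1053, 863 and 1568 CPM in AAV-Null and 1119, 768, 681, 1342 and 841 CPM in AAV-Osm. AAV-Osm 1 and 4 lay within the AAV-Null range and the other 3 AAV-Osm libraries below it, with a log2 fold change of -0.27 (SE 0.22, adjusted p = 0.941 in edgeR). Bgn had 314, 292, 263 and 455 CPM in AAV-Null and 250.0, 241, 269, 308 and 230 CPM in AAV-Osm. AAV-Osm 3 and 4 lay within the AAV-Null range, AAV-Null 4 stood above all others, and the log2 fold change was -0.35 (SE 0.17, adjusted p = 0.852 in edgeR). Without AAV-Null 4 it was -0.08 for Dcn and -0.16 for Bgn.

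Lum (lumican) and Ogn (osteoglycin, also called mimecan) are further members of the small leucine-rich family. Lum had 31.8, 34.9, 23.7 and 20.5 CPM in AAV-Null and 40.97, 13.4, 9.87, 26.0 and 43.9 CPM in AAV-Osm. Ogn had 67.3, 68.8, 43.4 and 38.8 CPM in AAV-Null and 57.0, 28.7, 27.1, 54.6 and 86.2 CPM in AAV-Osm. In both genes AAV-Osm 5 was the highest of all libraries and AAV-Osm 2 and 3 the lowest, so the AAV-Osm libraries enclosed the AAV-Null range. The log2 fold changes were -0.04 (SE 0.37) for Lum and -0.10 (SE 0.31) for Ogn in edgeR. In limma-voom with quality weights they were -0.78 (SE 0.31, adjusted p = 0.148) for Lum and -0.72 (SE 0.25, adjusted p = 0.111) for Ogn. The size of both thus differed between the fits, and the part of the weights in this was not tested. The promoter window of Ogn, at chr13:49607765-49608064 on the plus strand of GRCm38.p6, is shown as an example with TEAD and TATA matches, in the same capitals as for Vcan.
Ogn: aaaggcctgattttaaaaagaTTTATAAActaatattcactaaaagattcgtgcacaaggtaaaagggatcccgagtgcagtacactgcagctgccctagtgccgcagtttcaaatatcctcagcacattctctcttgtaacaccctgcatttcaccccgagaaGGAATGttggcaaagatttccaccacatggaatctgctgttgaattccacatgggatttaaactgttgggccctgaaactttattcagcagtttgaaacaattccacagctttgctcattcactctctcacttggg
The TATA motif matched both strands over overlapping bases, at positions -229 and -227 from the start. Of all windows, 13.6% hold the TATA motif and 14.7% the TEAD motif.

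**Figure D3:**
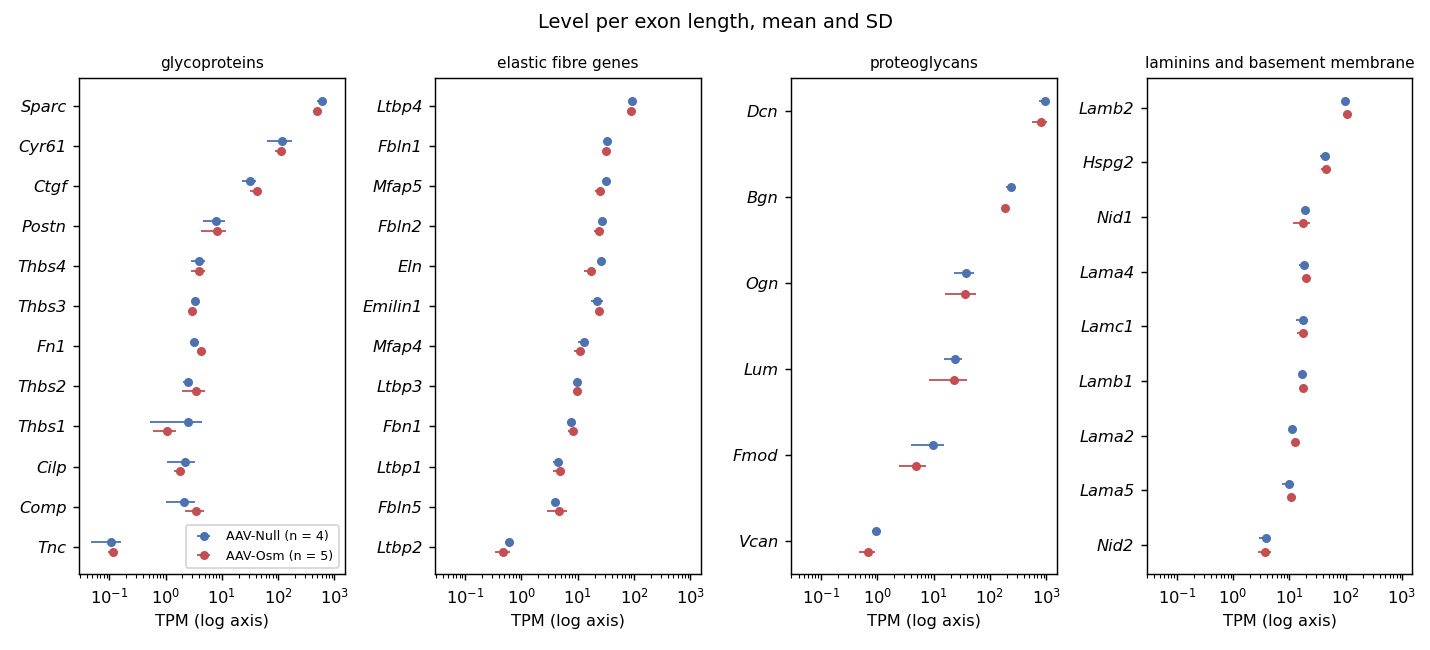
Level per exon length in TPM (horizontal axis, log scale) of each member, as the mean and SD of the 4 AAV-Null and 5 AAV-Osm libraries, in a panel for each group of genes. Dcn, Sparc, Bgn, Cyr61, Lamb2 and Ltbp4 are the most abundant members in AAV-Null, and the SDs of the 2 groups overlap in each of these.

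Laminins are trimers of an alpha, a beta and a gamma chain, and all 9 laminin and basement membrane genes had intervals within 1.5-fold of no difference in both directions in edgeR, with adjusted p from 0.951 to 0.994. Over all genes, 51.6% had such an interval in that fit. In limma-voom with quality weights, Lama4 was at 0.40 (SE 0.13, adjusted p = 0.108) and Nid1 at -0.33 (SE 0.13, adjusted p = 0.150) on the log2 scale. Lamb2 (the beta 2 chain of heart and muscle laminin) was the most abundant per length, at 97.8 ± 12.0 TPM (SD, n = 4) in AAV-Null and 106 ± 16.7 TPM (SD, n = 5) in AAV-Osm. Its levels were 324, 320, 300.1 and 333 CPM in AAV-Null and 269, 361, 445, 384 and 272 CPM in AAV-Osm. AAV-Osm 2, 3 and 4 were above every AAV-Null library, and AAV-Osm 1 and 5 were below every one. The log2 fold change was 0.12 (SE 0.16, 95% interval -0.23 to 0.47, adjusted p = 0.973 in edgeR).

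Hspg2 (perlecan, the heparan sulfate proteoglycan of basement membranes) had 379, 337, 298 and 374 CPM in AAV-Null and 276, 411, 451, 428 and 264 CPM in AAV-Osm. As in Lamb2, AAV-Osm 2, 3 and 4 were above all AAV-Null libraries and AAV-Osm 1 and 5 below them. The log2 fold change was 0.08 (SE 0.18, adjusted p = 0.985 in edgeR). Nid1 (nidogen 1, which links laminin to collagen IV) had 69.6, 67.4, 61.9 and 69.4 CPM in AAV-Null and 73.9, 46.5, 50.5, 48.0 and 77.2 CPM in AAV-Osm. Here AAV-Osm 1 and 5 were the highest and AAV-Osm 2, 3 and 4 the lowest, the reverse of Lamb2 and Hspg2. The log2 fold change of Nid1 was -0.18 (SE 0.17, adjusted p = 0.951 in edgeR). In each of the 3 genes the SD over the AAV-Osm libraries exceeded that over the AAV-Null libraries: 75.7 against 13.9 CPM in Lamb2, 88.8 against 37.7 CPM in Hspg2 and 15.01 against 3.56 CPM in Nid1. The difference in spread was not tested.

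The promoter windows of Lamb2, at chr9:108479612-108479911, and of Hspg2, at chr4:137468553-137468852, both on the plus strand of GRCm38.p6, are shown because both genes were high in AAV-Osm 2, 3 and 4 and low in AAV-Osm 1 and 5.
Lamb2: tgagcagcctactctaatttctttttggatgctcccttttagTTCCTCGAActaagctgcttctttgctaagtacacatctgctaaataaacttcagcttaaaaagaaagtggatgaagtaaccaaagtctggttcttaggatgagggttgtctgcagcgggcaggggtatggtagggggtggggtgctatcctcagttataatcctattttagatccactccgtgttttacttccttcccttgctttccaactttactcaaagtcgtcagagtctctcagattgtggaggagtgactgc
Hspg2: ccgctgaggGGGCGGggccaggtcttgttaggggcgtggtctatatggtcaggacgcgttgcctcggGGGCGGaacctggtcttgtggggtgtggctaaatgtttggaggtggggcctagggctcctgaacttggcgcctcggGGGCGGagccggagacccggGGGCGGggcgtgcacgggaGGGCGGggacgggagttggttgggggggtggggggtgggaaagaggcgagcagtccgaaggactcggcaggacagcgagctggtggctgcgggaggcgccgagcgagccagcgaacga
Lamb2 was the only member whose window held the STAT motif, at position -208 from the start, and 8.3% of all windows hold it. The Hspg2 window has 5 matches to the SP1 motif and none to the STAT motif. Of the 28 members with a window, which include Spp1, 17 had the SP1 motif, 4 the TEAD motif, 6 the TATA motif and 1, Ltbp3, the AP-1 motif, which 7.81% of all windows hold. The members without a window were Fn1, Thbs1, Cthrc1, Comp, Ctgf, Eln, Mfap4, Mfap5, Lum, Dcn, Lama4, Lamc1 and Nid2.

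The alpha chains set where a laminin acts. Lama2, the chain of muscle basement membrane, had 55.7, 58.9, 69.5 and 69.9 CPM in AAV-Null and 75.8, 73.1, 69.9, 64.6 and 61.9 CPM in AAV-Osm. The groups overlapped, and the log2 fold change was 0.12 (SE 0.13, adjusted p = 0.960 in edgeR). Lama5, a chain of endothelial basement membrane, had 67.9, 69.6, 66.0 and 49.0 CPM in AAV-Null and 60.1, 63.4, 78.9, 80.7 and 66.5 CPM in AAV-Osm. AAV-Osm 3 and 4 were above and AAV-Null 4 below all others, with a log2 fold change of 0.15 (SE 0.15, adjusted p = 0.955 in edgeR). Lama4, a chain of vessel basement membrane, had a log2 fold change of 0.10 (SE 0.18). Per length, Lama4, Lama2 and Lama5 made up 46.0%, 28.9% and 25.1% of the alpha chain TPM in AAV-Null and 45.9%, 29.0% and 25.1% in AAV-Osm, so the mix of alpha chains differed by less than its spread. Lamb2 made up 85.2 ± 1.58% (SD) of the beta chain TPM in AAV-Null and 85.4 ± 3.60% (SD) in AAV-Osm. Lamb1 (beta 1 chain), Lamc1 (gamma 1 chain) and Nid2 (nidogen 2) had log2 fold changes of 0.04 (SE 0.12), -0.03 (SE 0.15) and -0.04 (SE 0.18).

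**Figure D4:**
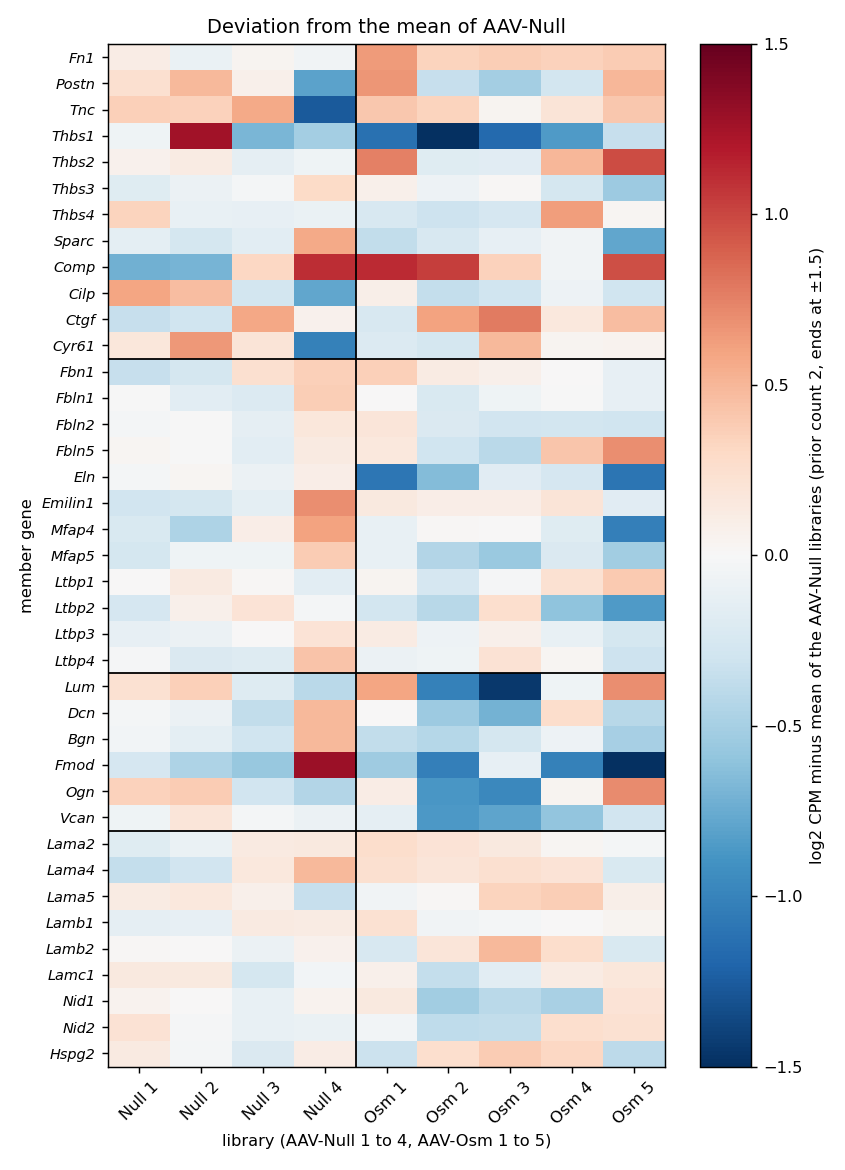
Log2 CPM (prior count 2) of each member in each library minus the mean of the AAV-Null libraries, with genes in rows by group and libraries in columns. AAV-Null 4 and AAV-Osm 5 hold the highest or the lowest value of many members, and the AAV-Osm libraries differ among themselves in Lum and Ogn.

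AAV-Null 4 held the highest value of 14 members and the lowest of 5, and AAV-Osm 5 the highest of 7 and the lowest of 11. The CPM of the 39 members summed to 4330, 4196, 3916 and 5627 in AAV-Null and 4062, 3823, 4143, 4756 and 3518 in AAV-Osm, highest in AAV-Null 4 and lowest in AAV-Osm 5. Fibroblast markers outside the matrix, 9 of 9 measured, summed to 287, 274, 306 and 514 CPM in AAV-Null and 289, 261, 290.1, 292 and 206 CPM in AAV-Osm, with the same libraries at the ends. Macrophage markers, 8 of 8, were also highest in AAV-Null 4, at 869 CPM against 390.2 to 586 CPM elsewhere. Liver markers, of which 4 of 12 were at 0 in some library, summed to 276 and 229 CPM in AAV-Null 3 and 4 and to between 51.8 and 137 CPM elsewhere. No marker of these lists passed the threshold, and the part of these cells in the member values was not tested. Without AAV-Null 4 and AAV-Osm 5, 6 members had groups that did not overlap (Eln, Emilin1, Fn1, Lama4, Thbs1 and Vcan), beside 7.74% of all genes. Without AAV-Null 3 and AAV-Null 4, 12 members had such groups, beside 16.3% of all genes.

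None of 83 other matrix and receptor genes passed the threshold in edgeR. Of these, 4 were higher and 5 lower at an unadjusted edgeR p under 0.05. That is 10.8% of them, beside 5.97% of all genes (2.89% higher and 3.09% lower). The median log2 fold change of the 83 genes was -0.04. The 25 other glycoproteins had a median of 0.00, the 18 other proteoglycans -0.07, the 19 other laminin, elastic fibre and basement membrane genes -0.04 and the 21 matrix receptors, mostly integrins, -0.04. No receptor had an unadjusted p under 0.05. Spon2 (spondin 2, a secreted matrix protein) had the smallest adjusted p among them. Its levels were 18.95, 26.2, 24.8 and 38.9 CPM in AAV-Null and 5.26, 10.2, 12.2, 14.4 and 4.796 CPM in AAV-Osm. All AAV-Osm libraries were below AAV-Null, and the log2 fold change was -1.55 (SE 0.31) with an edgeR adjusted p of 0.147 and a DESeq2 adjusted p of 0.000873. Over its 22 alternatives the adjusted p ran from 0.000873 to 0.364. DESeq2 called 0.41% of the genes to which it gave an adjusted p, none of them a member, and gave none to Tnc.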

How the data were processed

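RNA from the apex of the heart was read as 75 bp pairs from a KAPA mRNA HyperPrep library, per the labels' protocols. The authors deposited whole-number counts per gene with an exon length. STAR 2.5.2b, featureCounts and Subread 1.5.1 with mm10 are named in the submitters' processing notes. Sources used here give neither the annotation nor the use of strand. The table had 4141 further lines with blank gene symbols, left out of totals and tests. The members and lists were chosen with earlier results of these data known, so no p was computed over a list.

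All 13192 genes were fitted in edgeR 4.0.16 (TMM factors, robust quasi-likelihood F test, R 4.3.3), and filterByExpr removed 0. The SE is the absolute log2 fold change over the square root of F. TPM was computed from counts and the deposited exon lengths. Members with per-library values were the 3 of each group with the smallest p, the 2 with the highest TPM and those with groups that did not overlap. Any member with an adjusted p under 0.05 in edgeR, DESeq2 or limma-voom with quality weights was added, which brought in Comp. Values of a few further genes were added for their pathway or spread after they were seen. DESeq2 1.42.0, limma 3.58.1, other scalings and filters, a length trend and left-out libraries were alternatives. The code was tested on simulated data. The number of library pairs with identical values was 0.

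Promoter windows came from RefSeq (GRCm38.p6), and 28 of 41 members matched by symbol or synonym. Exon overlaps came from GENCODE M21.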

Additional observations from a re-analysis of the deposited data

Results flagged for a closer look

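Each member was tested in each group, which gave 78 sets of values, at both the highest and the lowest value. By Dixon's criterion, 9 values stood apart from the others of their set, where chance gives about 1 in 20 sets, or 3.9. AAV-Null 4 gave 3 of them: Sparc at 1340 CPM (the others 756 to 816), Emilin1 at 71.9 CPM (the others 36.4 to 40.1) and Fmod at 36.0 CPM (the others 9.87 to 12.3). AAV-Osm 5 gave 3 at the low end: Emilin1 at 39.3 CPM (the others 47.6 to 50.8), Mfap4 at 5.46 CPM (the others 9.84 to 11.3) and Lama4 at 53.0 CPM (the others 70.6 to 73.7). AAV-Osm 1 was high for Fn1, at 24.3 CPM (the others 19.6 to 20.3), and for Fbln2, at 78.8 CPM (the others 56.7 to 59.8). AAV-Null 1 was high for Thbs4, at 9.12 CPM (the others 6.61 to 6.70). Members share libraries, so these values are not independent.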

How the results depend on the processing

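Of 188 recomputed summary values, 178 stayed close to the reported one and 10 moved. Close meant within the SD between libraries for a median or share, and within 1.5-fold for a count. The alternative with no filter on low counts could not differ from the main fit, since filterByExpr removed 0 genes. Members past the threshold numbered 0 in edgeR under every scaling, filter and left-out library tried, in DESeq2 and in limma-voom without quality weights, and 1, Comp, in limma-voom with quality weights. Other matrix and receptor genes past the threshold numbered 0 in edgeR, 1 in DESeq2 with its filter on or off and 3 in limma-voom with quality weights. Over all genes these tools called 16, 53 and 170. The proteoglycan median was -0.64 with quality weights, and the laminin median -0.028 with the length trend taken out. Leaving out each library in turn, the medians ran from -0.076 to 0.18 for glycoproteins, from -0.15 to 0.03 for elastic fibre genes, from -0.42 to -0.20 for proteoglycans and from 0.024 to 0.16 for laminins. The extremes came without AAV-Null 4 and AAV-Null 2 for glycoproteins, and the highest laminin median without AAV-Osm 5. Members whose groups did not overlap numbered 6 without AAV-Null 4 and AAV-Osm 5, beside 7.74% of all genes. They numbered 12 without AAV-Null 3 and AAV-Null 4, beside 16.3% of all genes. With upper-quartile factors or total counts they numbered 2, beside 2.33% and 2.28% of all genes. Of 702 values for single genes, 6 passed the threshold only in an alternative, for Spon2, Comp, Wisp2 and Aspn. Causes were not tested. No paired analysis was possible because the labels carry no replicate numbers shared between groups. With 4 and 5 libraries, 34 of 39 edgeR intervals lay within 2-fold and 18 within 1.5-fold. For the rest, at this depth and spread, differences of more than that size were not excluded.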

Other observations

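Among other matrix genes, Wisp2 (Ccn5, a CCN family protein) was at 0.86 on the log2 scale (SE 0.30, adjusted p = 0.644 in edgeR), and limma-voom with quality weights gave 1.30 (adjusted p = 0.016). Frem2, a protein of epithelial basement membranes, and Svep1, an integrin ligand, had edgeR log2 fold changes of 0.98 (SE 0.28) and 0.74 (SE 0.21), both with an edgeR adjusted p of 0.487. Gpc3 (glypican 3, a cell surface heparan sulfate proteoglycan) was at -0.78 (SE 0.29) and Aspn (asporin, a small leucine-rich proteoglycan) at -0.49 (SE 0.26).

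Per length, Thbs1 made up 16.2% of the TPM of the thrombospondins with Comp in AAV-Null and 6.92% in AAV-Osm, and Comp 15.9% and 23.2%. The Thbs1 share rests in part on AAV-Null 2, where Thbs1 was at 5.28 TPM against 1.20 to 2.18 TPM in the other AAV-Null libraries.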
